A study of Mus musculus with 12 samples.

Results

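Transcripts known as oocyte-specific or oocyte-enriched were examined in laser-captured granulosa cell samples. The set held 35 named genes, each taken through its probe set annotated to that gene alone, and where a gene had several, through the one with the highest mean over the 12 arrays. Of the 35 genes, 31 were measured, among 18193 genes in all. Of the other 4, Nlrp2, Npm2 and Fbxw15 matched no probe set that names 1 gene, and Oas1d matched only one that it shares with Oas1e, and they were not analysed here. The samples were granulosa cells captured by laser from antral, preovulatory follicles of 3-week-old mice, with 25 ng of total RNA amplified for each one-colour Affymetrix array and 3 arrays in each of 4 groups. The bERKO hCG group came from bERKO mice, in which the gene of estrogen receptor beta is disrupted, given pregnant mare serum gonadotropin (PMSG) for 48 h and then human chorionic gonadotropin (hCG) for 4 h. The WT hCG group came from wild-type mice given the same hormones. The bERKO PMSG group and the WT PMSG group were collected 48 h after PMSG with no hCG. PMSG acts like follicle-stimulating hormone and hCG like luteinizing hormone, and every group had received PMSG. The labels call the arrays biological replicates. The labels state neither the bERKO allele nor how many mice an array stands for.

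The oocyte grows inside the follicle in contact with granulosa cells, and in a preovulatory follicle the cumulus granulosa cells surround it while the mural granulosa cells line the wall. It coats itself with the zona pellucida, secretes growth factors that act on the cumulus cells, and stores RNA and protein that the early embryo uses before its own genome is active. The transcription factors Figla, Nobox, Lhx8 and Sohlh1 are known from mouse knockouts to be needed for this program, and FIGLA is known to act through E-box sequences near the starts of the zona genes. In bulk samples such as these, fewer oocytes and less RNA per oocyte cannot be told apart.

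Because some of the genes are known to share regulators, the letters near the starts of all were sought in RefSeq windows of 300 bases (250 before to 50 after the start, GRCm38.p6). Windows were found for 23 of the measured genes. Zp3 was the only zona gene among them, and Zp1, Zp2 and Gdf9 had none. Since some genes have several starts, those of Kit nearly the same, there were 27 windows in all. The E-box letters CANNTG stood in 88.9% of these windows and in 72.3% of all 32851 promoter windows, counting both strands. The narrower CAGGTG, a part of CANNTG, stood in 40.7% of the genes' windows and 20.2% of all windows. In 33.3% of the genes' windows and 3.36% of all windows a CAGGTG match began between 90 and 50 bases before the start, a stretch chosen after the positions were seen. The homeobox letters TAATTG stood in 7.41% of the genes' windows and 8.0% of all windows. The windows below are shown because a match lies in that stretch in genes of different roles. They are Zp3 at chr5:135979855-135980154 on the plus strand, Nobox at chr6:43309505-43309804 on the minus strand, Oosp1 at chr19:11691002-11691301 on the minus strand, Zar1 at chr5:72581035-72581334 on the minus strand and Rfpl4 at chr7:5116862-5117161 on the minus strand. Capitals mark CAGGTG on either strand, so that CACCTG is the same match read from the other strand.
Zp3: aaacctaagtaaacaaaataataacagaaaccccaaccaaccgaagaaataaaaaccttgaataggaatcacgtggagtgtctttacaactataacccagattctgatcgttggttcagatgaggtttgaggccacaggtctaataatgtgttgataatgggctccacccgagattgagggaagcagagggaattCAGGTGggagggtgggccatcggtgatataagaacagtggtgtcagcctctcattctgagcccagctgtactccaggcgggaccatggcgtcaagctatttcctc
Nobox: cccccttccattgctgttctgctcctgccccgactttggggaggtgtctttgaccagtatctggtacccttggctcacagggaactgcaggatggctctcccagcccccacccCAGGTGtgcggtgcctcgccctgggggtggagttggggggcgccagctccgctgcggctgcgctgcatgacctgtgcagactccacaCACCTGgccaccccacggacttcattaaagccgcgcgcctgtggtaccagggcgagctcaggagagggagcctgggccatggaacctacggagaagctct
Oosp1: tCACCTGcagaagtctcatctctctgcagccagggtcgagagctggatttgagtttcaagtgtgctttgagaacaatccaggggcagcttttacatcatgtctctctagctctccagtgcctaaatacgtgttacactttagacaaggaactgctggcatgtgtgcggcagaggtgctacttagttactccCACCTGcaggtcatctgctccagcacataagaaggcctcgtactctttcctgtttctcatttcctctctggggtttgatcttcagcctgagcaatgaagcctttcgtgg
Zar1: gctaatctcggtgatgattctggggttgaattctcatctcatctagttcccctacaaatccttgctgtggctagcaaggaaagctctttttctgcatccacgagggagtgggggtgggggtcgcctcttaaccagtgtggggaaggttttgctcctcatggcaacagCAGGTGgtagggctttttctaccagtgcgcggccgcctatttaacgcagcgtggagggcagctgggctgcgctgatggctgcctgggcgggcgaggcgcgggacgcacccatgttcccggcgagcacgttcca
Rfpl4: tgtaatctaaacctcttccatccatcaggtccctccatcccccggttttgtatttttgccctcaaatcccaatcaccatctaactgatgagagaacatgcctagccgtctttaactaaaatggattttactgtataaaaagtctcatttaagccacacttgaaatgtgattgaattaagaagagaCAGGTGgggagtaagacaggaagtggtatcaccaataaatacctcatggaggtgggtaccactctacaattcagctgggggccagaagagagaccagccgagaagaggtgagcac
Counted from the start, the first base of the match nearest to it stood at -55 in Zp3, -50 in Nobox, -59 in Oosp1, -83 in Zar1 and -65 in Rfpl4. A match of letters describes the sequence and is not evidence of a bound site.

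The levels below are log2(intensity + 16) after quantile normalization, so 4 is the floor that the offset sets, and a change is a difference of group means on that scale, which understates the change of dim genes. Values of a group are given in the order of replicates 1, 2 and 3. The granulosa identity of the samples was checked first: 8 of 9 granulosa markers were measured, among them Fshr, Inha, Foxl2 and Amhr2, and their mean level was 12.15, 12.16 and 12.23 in the bERKO hCG samples, 13.55, 13.24 and 13.49 in the WT hCG samples, 13.37, 13.53 and 13.08 in the bERKO PMSG samples and 13.60, 13.47 and 13.43 in the WT PMSG samples. A pair of arrays stood apart in a measure of RNA quality, the ratio of the 3' to the 5' Gapdh control probe sets, which is high where transcripts are incomplete. It was 23.74 for bERKO PMSG replicate 3 and 32.16 for WT hCG replicate 1, and the other 10 arrays had 4.72 to 11.19.

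The oocyte transcripts were highest in the bERKO PMSG samples. Their mean level over the 31 genes was 6.39, 6.19 and 7.20 in the bERKO hCG samples, 5.90, 6.41 and 5.81 in the WT hCG samples, 8.32, 8.26 and 9.49 in the bERKO PMSG samples and 5.82, 6.28 and 8.03 in the WT PMSG samples. All 3 bERKO PMSG arrays lay above every other array, but WT PMSG replicate 3 came close to them and far from the other WT PMSG arrays. The array with the highest mean, bERKO PMSG replicate 3, was also the one with a Gapdh 3'/5' ratio of 23.74, whereas WT hCG replicate 1, at 32.16, was among the low arrays. The 2 arrays were not alike in the same ratio for beta-actin, 1.611 and 1.023 in that order, where all arrays but the first had 0.886 to 1.153. Before normalization bERKO PMSG replicate 3 also had the lowest median signal (49.07) and the most signals under the offset (30%). What part this had in its oocyte signal was not tested. A level above 10 was reached by 3, 5 and 15 genes in the bERKO PMSG samples, by 2 genes, Nlrp14 and Bcl2l10, on WT PMSG replicate 3, and by 0 on every other array. The lowest level was under 5 for 20 genes. As a share of the deposited signal of all 18193 genes, the 31 genes took 0.0154, 0.015 and 0.0357% in the bERKO hCG samples and 0.0124, 0.0216 and 0.0147% in the WT hCG samples. The shares were 0.0778, 0.0865 and 0.182% in the bERKO PMSG samples and 0.00982, 0.0159 and 0.0708% in the WT PMSG samples. The median level of all genes stayed between 7.07 and 7.51 over the 12 arrays, a narrow range that quantile normalization largely sets in advance.

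**Figure D1:**
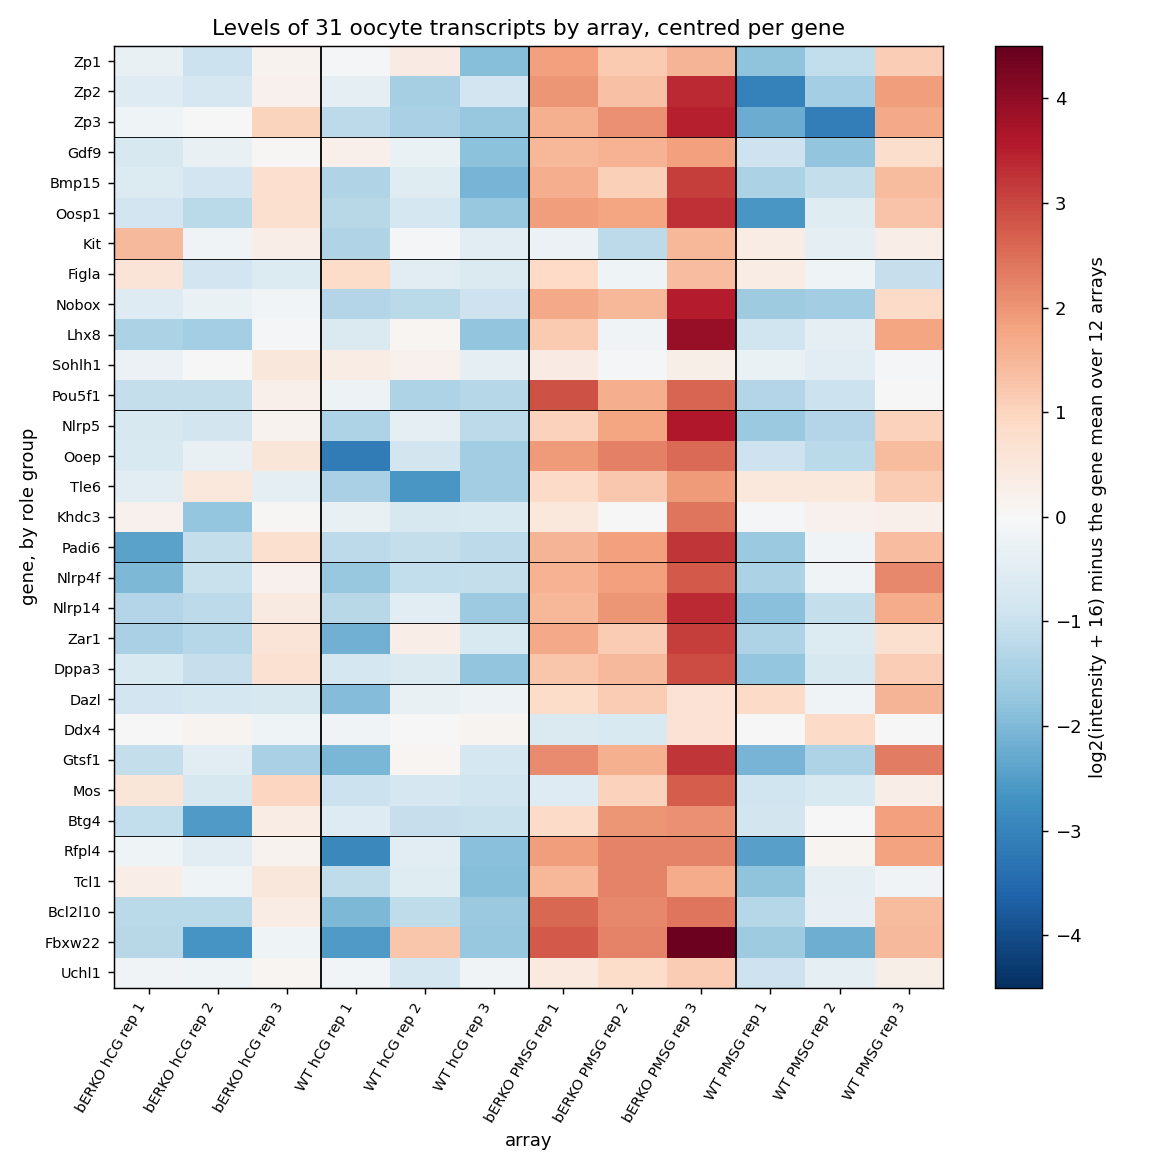
Level of each of the 31 oocyte transcripts (rows, by role group) on each of the 12 arrays (columns, 4 groups parted by black lines), as log2(intensity + 16) minus that gene's mean over the 12 arrays. Red fills the 3 bERKO PMSG columns and WT PMSG replicate 3 for most genes, while Kit, Figla, Sohlh1 and Ddx4 stay pale or mixed.

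The same array led within a group for most of the genes. WT PMSG replicate 3 was the highest WT PMSG array for 28 of the 31 genes, or 90.3%, against 32.5% of all 18193 genes. Among the bERKO PMSG arrays, replicate 3 was highest for 24 of the 31 genes, or 77.4%, against 40.3% of all genes. Replicate 3 was also the highest bERKO hCG array for 25 of the 31 genes, or 80.6%, against 34.7% of all genes. In the WT hCG group the leading array was replicate 2, highest for 17 of the 31 genes, or 54.8%, against 26.7% of all genes, while replicate 1 was highest for 10 and replicate 3 for 4. Over all 12 arrays, 23 genes had their highest level on bERKO PMSG replicate 3, where 20.3% of all genes had theirs, the largest such share of the 12 arrays. The replicate numbers are names of arrays, and the labels state no shared preparation of the arrays numbered 3.

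The comparison of hCG with PMSG within bERKO asked how the transcripts changed after the ovulatory signal in the mutant. Of the 31 genes, 18 fell in limma at an adjusted p under 0.05, which is 58.1% of them, where 11.9% of all genes were called lower. None of the 31 rose, where 7.05% of all genes were called higher. The median change was -2.29 over the 31 genes and -0.19 over all genes. Changes were negative for 29 of the 31 genes, where 60.4% of all genes were, and 24 of the 31 had bERKO hCG arrays all below the bERKO PMSG arrays, where 22.9% of all genes did. The 18 held 4 of 5 genes of the subcortical maternal complex, both other measured NLRP genes, both measured maternal effect genes and none of the 3 zona pellucida genes. For each of the 18 the bERKO hCG arrays lay all below the bERKO PMSG arrays. Among the 18, Tle6 fell by 1.495 and Fbxw22 fell by 4.499, the ends of the range. Without bERKO PMSG replicate 3, the array with the high Gapdh ratio, 2 of the 18 calls were left, Bcl2l10 and Pou5f1, while the median change was still -1.86. With WT PMSG replicate 3 left out as well, an alternative chosen after seeing the data, 14 genes were called at the same median change of -1.86. The count was 3 without bERKO hCG replicate 1, 4 without bERKO hCG replicate 2 and 10 without bERKO PMSG replicate 1 or 2, and with 1 array left out it reached 23, without WT PMSG replicate 3. Bcl2l10 passed under all 22 alternatives tried and Pou5f1 under all 21 that could be run on it.

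In WT, hCG was set against PMSG in the same way. Only Tle6 passed, which fell by 2.58 (SE 0.42, adjusted p = 0.0142 in limma), where 1.35% of all genes were called lower. None rose, where 0.731% of all genes were called higher. The median change of the 31 genes was -0.52, against -0.08 over all genes, and it was -0.07 without WT PMSG replicate 3. For 3 genes, Tle6, Khdc3 and Dazl, the WT hCG arrays lay all below the WT PMSG arrays, a share of 9.68% where 15.2% of all genes did so. The test of the difference between the bERKO and WT responses passed for 0 of the 31 genes in limma (0.638% of all genes were called lower and 0.676% higher there). The median difference, bERKO minus WT response, was -1.56 over the 31 genes and -0.11 over all genes, and it was negative for 28 of the 31, where 55.9% of all genes were. At an unadjusted p under 0.05, 4 genes were lower, 12.9% where 8.51% of all genes were, and the lowest adjusted p was 0.0785, for Pou5f1. No single gene's response was therefore shown to differ between bERKO and WT.

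Between the genotypes after PMSG, no oocyte transcript passed. The median change, bERKO minus WT, was 2.31 over the 31 genes, against 0.04 over all genes, and 29 of the 31 changes were positive, where 53.7% of all genes were. In limma 0 of 31 passed (0% of all genes were called higher and 0.011% lower), with 21 higher at an unadjusted p under 0.05, where 5.32% of all genes were. For 15 of the 31 genes, 48.4%, all bERKO PMSG arrays lay above all WT PMSG arrays, where 8.14% of all genes did. Without WT PMSG replicate 3, 6 genes passed and the median change was 2.99, and without WT PMSG replicate 1, 1.69 with 0 passing. With both PMSG arrays numbered 3 left out, an alternative chosen after seeing the data, 2 genes passed and the median change was 2.61. This comparison and the bERKO response share the bERKO PMSG arrays, so they do not bear on the genes independently.

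After hCG the genotypes were closer. The median change, bERKO minus WT, was 0.35, against -0.06 over all genes, and only Tle6 passed, where 1.55% of all genes were called higher and 1.54% lower. For Zp3, Nobox, Ooep, Tle6, Mos and Tcl1, 6 of the 31 genes or 19.4%, the bERKO hCG arrays lay all above the WT hCG arrays, where 11.4% of all genes did. Tle6 was higher in bERKO by 1.73 (SE 0.42, adjusted p = 0.0481 in limma), a call that 18 of 22 alternatives lost, among them 11 of the 12 that left out 1 array, with adjusted p up to 0.156. Averaged over both treatments, only Tcl1 passed, higher in bERKO by 2.01 (SE 0.33, adjusted p = 0.0437 in limma), where 0.0385% of all genes were called higher and 0.104% lower. That call was lost under 16 of 21 alternatives, and the change was 1.76 to 2.17 when 1 array was left out.

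**Figure D2:**
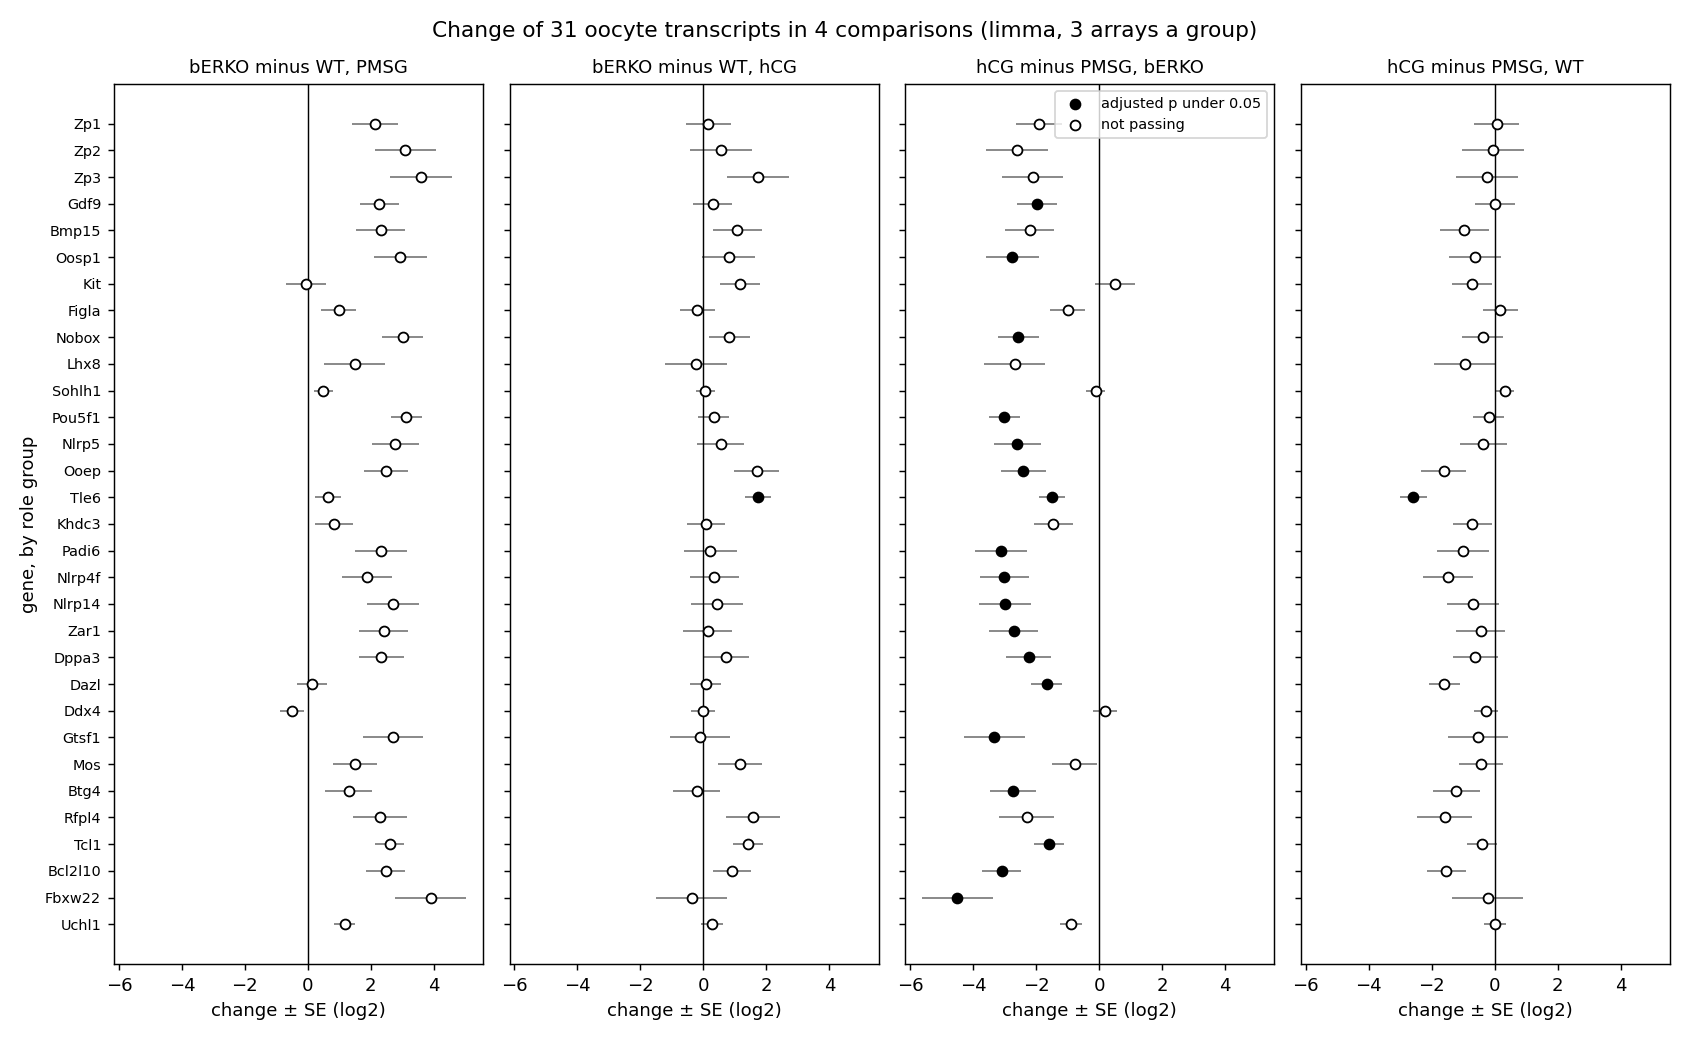
Change ± SE of each of the 31 genes (rows, by role group) in 4 comparisons (panels), in log2 units from limma with 3 arrays a group. Filled points passed an adjusted p of 0.05: 0 in bERKO minus WT after PMSG, 1 (Tle6) after hCG, 18 in hCG minus PMSG within bERKO and 1 (Tle6) within WT.

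The zona pellucida genes Zp1, Zp2 and Zp3 encode the glycoproteins of the coat around the oocyte, and ZP3 and ZP2 take part in sperm binding. Zp2 measured 6.68, 6.51 and 7.45 in the bERKO hCG samples, against 9.25, 8.58 and 10.62 in the bERKO PMSG samples. In WT it measured 6.82, 5.77 and 6.40 after hCG, against 4.24, 5.75 and 9.17 after PMSG. WT PMSG replicate 3 thus lay within the bERKO PMSG range, while WT PMSG replicate 1 was near the floor. The change of Zp2 was -2.60 (SE 0.98) for hCG within bERKO and 3.10 (SE 0.98) for bERKO over WT after PMSG, neither passing in limma (adjusted p = 0.0872 and 0.351). Zp3 measured 6.94, 7.17 and 8.15 in bERKO and 5.97, 5.68 and 5.43 in WT after hCG, apart from each other, and 8.76, 9.20 and 10.64 in bERKO and 4.92, 4.04 and 8.84 in WT after PMSG. Zp1 and Zp3 had changes of -1.91 and -2.11 for hCG within bERKO, also without a call.

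Of the secreted factors, Gdf9 and Bmp15 are oocyte-made members of the TGF-beta family that act on cumulus cells, and Oosp1 is an oocyte-secreted protein. Gdf9 measured 7.57, 7.94 and 8.34 in the bERKO hCG samples, against 9.77, 9.84 and 10.14 in the bERKO PMSG samples, without overlap. It fell by 1.97 (SE 0.63, adjusted p = 0.0476 in limma), a call lost under 12 of 22 alternatives, leaving out any of the 6 bERKO arrays among them. In WT, Gdf9 measured 8.54, 7.98 and 6.46 after hCG, against 7.35, 6.50 and 9.07 after PMSG, and the ranges overlapped. Oosp1 measured 7.82, 7.48 and 9.41 in the bERKO hCG samples, against 10.58, 10.45 and 11.96 in the bERKO PMSG samples. Its WT values were 7.44, 7.88 and 6.99 after hCG, against 6.07, 8.15 and 9.95 after PMSG. WT PMSG replicate 3 lay below the bERKO PMSG arrays and above every other WT array. Within bERKO Oosp1 fell by 2.76 (SE 0.84, adjusted p = 0.0389), a call lost under 11 of 22 alternatives, leaving out any bERKO PMSG array among them. Bmp15 measured 7.02, 6.77 and 8.39 in the bERKO hCG samples, against 9.28, 8.72 and 10.77 in the bERKO PMSG samples. With 3 probe sets of the same direction, it had a change of -2.20 that did not pass (adjusted p = 0.0703).

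Kit encodes the receptor of Kit ligand, which granulosa cells make. Levels of Kit ran from 4.05 to 6.92 over the 12 arrays, with the highest on bERKO PMSG replicate 3, as for most of the set. Kit did not share the changes of most other genes for hCG within bERKO, at 0.51, or for bERKO over WT after PMSG, at -0.05. For bERKO over WT after hCG its change was 1.17, and none of these passed. Its 2 probe sets correlated at -0.13 over the arrays. The granulosa partners Kitl, Tgfbr1, Bmpr2 and Bmpr1b, the ligand of Kit and receptors for GDF9 and BMP15, had a mean level of 11.96, 12.003 and 12.20 in the bERKO hCG samples and 12.13, 12.32 and 12.46 in the WT hCG samples. On the PMSG arrays that mean was 12.37, 12.36 and 12.47 in bERKO and 12.64, 12.58 and 12.37 in WT. The mean varied far less than that of the oocyte set, but it averaged genes that moved in opposite directions. Bmpr1b alone ran from 9.71 to 13.08 over the 12 arrays. Of the 4, Kitl rose after hCG in WT by 1.38 (adjusted p = 0.0447 in limma) and Bmpr1b after hCG in bERKO fell by 2.31 (adjusted p = 0.000843). Bmpr1b was also lower in bERKO than in WT after hCG, with a change of -1.40 (adjusted p = 0.0422).

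Among the transcription factors, Nobox is a homeobox factor of growing oocytes and Pou5f1 (Oct4) is a pluripotency factor kept in oocytes. Nobox measured 5.25, 5.53 and 5.71 in the bERKO hCG samples, against 7.52, 7.31 and 9.33 in the bERKO PMSG samples. In WT it lay near the floor after hCG (4.51, 4.62 and 4.89) and, except on replicate 3, after PMSG (4.21, 4.24 and 6.68). After hCG in bERKO, Nobox fell by 2.56 (SE 0.65, adjusted p = 0.0183 in limma). Without bERKO PMSG replicate 3 its change was -1.92, with no call. Pou5f1 measured 4.52, 4.51 and 5.79 in the bERKO hCG samples, against 8.43, 7.20 and 8.20 in the bERKO PMSG samples. Its WT levels were 5.36, 4.21 and 4.30 after hCG, against 4.25, 4.62 and 5.56 after PMSG, so here WT PMSG replicate 3 stayed below every bERKO PMSG array. After hCG in bERKO, Pou5f1 fell by 3.003 (SE 0.50, adjusted p = 0.00202), and its PMSG change of 3.13 for bERKO over WT was the nearest to a call there (adjusted p = 0.0786).

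Sohlh1, a helix-loop-helix factor of early folliculogenesis, hardly varied. It measured 6.51, 6.78 and 7.29 in the bERKO hCG samples and 7.09, 6.98 and 6.32 in the WT hCG samples, against 7.13, 6.70 and 7.05 in the bERKO PMSG samples and 6.48, 6.26 and 6.68 in the WT PMSG samples. Its changes between groups ran from -0.10 for hCG within bERKO to 0.49 for bERKO over WT after PMSG, none passing, and the difference of its responses, -0.43, did not pass either. Figla, the helix-loop-helix activator of the zona genes, stayed between 4.26 and 6.67. It was lowest of all arrays on WT PMSG replicate 3, where the zona genes were high. Its highest level was on bERKO PMSG replicate 3, where Zp2 and Zp3 were highest too. Lhx8, a LIM homeobox factor, measured 7.03, 5.70 and 9.78 in the bERKO PMSG samples and followed the set, with a change of -2.67 for hCG within bERKO that did not pass (adjusted p = 0.0777).

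The subcortical maternal complex is a protein assembly under the oocyte membrane that mouse embryos need for their first divisions, and Nlrp5 (Mater), Ooep (Floped), Tle6 and Khdc3 (Filia) encode its subunits, with Padi6 counted among them. After hCG in bERKO, 4 of these 5 genes fell, where 11.9% of all genes were called lower, and each of the 4 calls was lost without bERKO PMSG replicate 3 and without bERKO hCG replicate 1. Nlrp5 measured 7.88, 7.74 and 8.74 in the bERKO hCG samples, against 9.62, 10.34 and 12.18 in the bERKO PMSG samples, where replicate 3 was far above the other two. In WT it measured 7.20, 8.13 and 7.39 after hCG, against 6.90, 7.25 and 9.64 after PMSG, and of the WT arrays only PMSG replicate 3 reached the bERKO PMSG range. Within bERKO it fell by 2.59 (SE 0.75, adjusted p = 0.0314 in limma).

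Ooep measured 7.05, 7.38 and 8.28 in the bERKO hCG samples, against a narrow 9.65, 10.002 and 10.27 in the bERKO PMSG samples. In WT its levels were 4.59, 6.89 and 6.16 after hCG, against 6.81, 6.50 and 9.16 after PMSG. Within bERKO Ooep fell by 2.40 (SE 0.71, adjusted p = 0.0344). Padi6, a protein of oocyte cytoplasmic lattices, measured 4.62, 5.98 and 7.77 in the bERKO hCG samples, against 8.59, 8.90 and 10.25 in the bERKO PMSG samples. The WT arrays held 5.87, 5.96 and 5.87 after hCG, against 5.38, 6.90 and 8.45 after PMSG. For both genes all bERKO PMSG arrays lay above the WT PMSG arrays, of which replicate 3 was the nearest. Within bERKO Padi6 fell by 3.12 (SE 0.83, adjusted p = 0.022), and Khdc3 had a change of -1.45 that did not pass (adjusted p = 0.125).

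Tle6 stood out from its partners. It measured 6.91, 7.84 and 6.94 in the bERKO hCG samples, against 8.26, 8.61 and 9.30 in the bERKO PMSG samples. In WT it measured 5.93, 4.75 and 5.81 after hCG, against 7.85, 7.85 and 8.54 after PMSG. WT PMSG replicates 1 and 2, among the lowest arrays for the zona genes, thus held Tle6 above every WT hCG array. After hCG it fell by 1.495 in bERKO (SE 0.42, adjusted p = 0.0272 in limma) and, as given above, also in WT, where the call was lost without WT PMSG replicate 1 or 3 or WT hCG replicate 2 (adjusted p up to 0.0665). The difference between those responses was 1.08 (SE 0.59, adjusted p = 0.414).

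The other NLRP genes are oocyte relatives of Nlrp5, and both measured ones fell within bERKO. Nlrp14 measured 7.49, 7.62 and 9.21 in the bERKO hCG samples, against 10.29, 10.79 and 12.18 in the bERKO PMSG samples. Its WT levels were 7.57, 8.29 and 7.17 after hCG, against 6.92, 7.74 and 10.47 after PMSG, the last value again within the bERKO PMSG range. Within bERKO Nlrp14 fell by 2.98 (SE 0.83, adjusted p = 0.0275 in limma). Nlrp4f measured 4.89, 5.92 and 7.11 in the bERKO hCG samples, against 8.48, 8.77 and 9.68 in the bERKO PMSG samples. In WT the values were 5.21, 5.80 and 5.85 after hCG, against 5.495, 6.75 and 9.07 after PMSG, where replicate 3 alone reached the bERKO PMSG range. Within bERKO Nlrp4f fell by 3.01 (SE 0.79, adjusted p = 0.0207). Without bERKO PMSG replicate 3 these changes were -2.43 for Nlrp14 and -2.65 for Nlrp4f, both without a call.

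Zar1 and Dppa3 (Stella) are maternal effect genes, the first an RNA-binding protein of the oocyte cytoplasm and the second a factor that protects maternal chromatin from demethylation. Dppa3 measured 7.79, 7.42 and 9.15 in the bERKO hCG samples, against 9.72, 9.93 and 11.39 in the bERKO PMSG samples. In WT it measured 7.69, 7.83 and 6.69 after hCG, against 6.75, 7.74 and 9.58 after PMSG, all below the bERKO PMSG arrays. Within bERKO it fell by 2.23 (SE 0.71, adjusted p = 0.049 in limma). Zar1 measured 6.48, 6.66 and 8.52 in the bERKO hCG samples, against 9.63, 9.09 and 11.05 in the bERKO PMSG samples, and fell by 2.71 (SE 0.78, adjusted p = 0.0314). The Dppa3 call was lost under 12 of 22 alternatives, and the change was -2.74 to -1.71 when 1 array was left out.

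The genes of RNA binding, germ granules and meiotic control did not move as one. Btg4, an adaptor for the clearance of maternal messenger RNA, measured 6.87, 5.43 and 8.31 in the bERKO hCG samples, against 8.82, 9.95 and 10.03 in the bERKO PMSG samples. Its WT levels were 7.38, 6.92 and 6.96 after hCG, against 7.13, 7.97 and 9.81 after PMSG, with replicate 3 again inside the bERKO PMSG range. Within bERKO Btg4 fell by 2.73 (SE 0.74, adjusted p = 0.0249 in limma). Gtsf1, a partner of piRNA proteins, measured 5.17, 5.73 and 4.78 in the bERKO hCG samples, against 8.35, 7.85 and 9.45 in the bERKO PMSG samples. In limma it fell by 3.32 (SE 0.96, adjusted p = 0.0318), and its second probe set had a change of -1.36. Dazl, an RNA-binding protein of germ cells, fell by 1.66 (SE 0.49, adjusted p = 0.0351), yet it was nearly equal in the PMSG groups (7.02, 7.32 and 6.83 in bERKO, against 7.05, 6.01 and 7.71 in WT). Within WT the change of Dazl for hCG was alike, -1.60, without overlap but also without a call (adjusted p = 0.119 in limma). The difference of its responses was -0.06. The second probe set of Dazl had changes of -0.81 for hCG within bERKO and -2.71 within WT. For bERKO over WT after PMSG it had -0.67, where the first had 0.13. Mos, the kinase that holds the egg in meiotic arrest, had a change of -0.78 with no call. Ddx4 (Vasa), a germ granule helicase, stayed between 4.08 and 5.64 on all 12 arrays.

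The remaining oocyte-enriched proteins have varied roles. Bcl2l10 (Diva), a BCL2 family protein, measured 7.999, 8.02 and 9.54 in the bERKO hCG samples, against 11.82, 11.38 and 11.64 in the bERKO PMSG samples. In WT its levels were 7.20, 8.08 and 7.56 after hCG, against 7.92, 8.85 and 10.65 after PMSG, with the ranges of the 2 PMSG groups apart. Within bERKO Bcl2l10 fell by 3.09 (SE 0.62, adjusted p = 0.00537 in limma), and its change was -3.60 to -2.83 when 1 array was left out. Its change for hCG within WT, -1.53, did not pass (adjusted p = 0.228).

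Tcl1, a co-activator of the kinase AKT, measured 6.48, 5.99 and 6.71 in the bERKO hCG samples and 5.05, 5.63 and 4.25 in the WT hCG samples. After PMSG it measured 7.68, 8.40 and 7.87 in bERKO and 4.38, 5.74 and 6.02 in WT, so bERKO lay above WT without overlap under both treatments. After hCG within bERKO, Tcl1 fell by 1.59 (SE 0.47, adjusted p = 0.0334 in limma), a call lost without any one of the 6 bERKO arrays. Fbxw22, one of a family of oocyte F-box genes that lie together and are alike in sequence, measured 5.51, 4.09 and 6.54 in the bERKO hCG samples, against 9.50, 8.97 and 11.17 in the bERKO PMSG samples. Its WT levels were scattered, 4.21, 8.01 and 5.04 after hCG, against 5.15, 4.54 and 8.22 after PMSG. Within bERKO Fbxw22 fell by 4.499 (SE 1.12, adjusted p = 0.0168), and how far its probe set reads its relatives was not tested. Rfpl4, a RING finger protein, measured 8.79, 9.15 and 9.14 in bERKO after PMSG, against 4.46, 7.05 and 8.72 in WT. Uchl1, a deubiquitinase also found in neurons, lay between 8.19 and 10.25 on all 12 arrays. The changes of Rfpl4 and Uchl1 for hCG within bERKO, -2.29 and -0.89, did not pass.

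Co-variation was then described with the group means taken out, so that it shows only how arrays of 1 group differ. Over the 12 arrays the 465 pairs of the 31 genes had a median Pearson r of 0.56 and a median Spearman rho of 0.52, and 90.3% of pairs were above 0. Each gene was also set against the mean of the other 30: the median r was 0.78, and 14 genes exceeded 0.8. The median r of all 18193 genes with the 31-gene mean was -0.01, and 0.731% of them exceeded 0.8. The closest followers were Nlrp14 (0.98), Bmp15 (0.97), Dppa3 (0.96) and Nlrp5 (0.95). At the other end were Figla (-0.25), Ddx4 (0.16), Tle6 (0.24) and Dazl (0.30). These points share their arrays, and much of the likeness rests on the arrays farthest from the median, WT PMSG replicate 3 and bERKO PMSG replicate 3. Without that pair the median r over gene pairs was 0.28, and 71.6% of pairs were above 0. The median r with the mean of the other genes was then 0.54, and 7 genes exceeded 0.8. For all genes against the 31-gene mean, the median r was -0.045 and 1.12% exceeded 0.8.

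**Figure D3:**
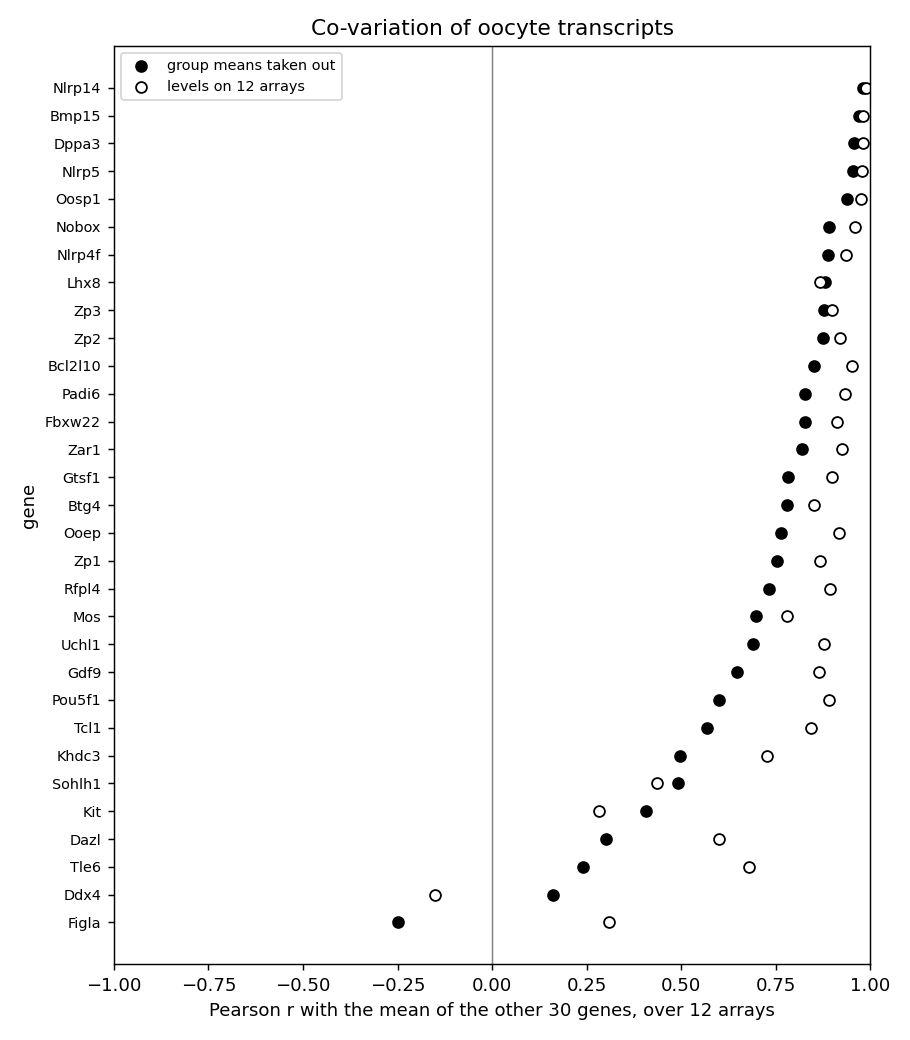
Pearson r of each of the 31 genes (rows, sorted) with the mean of the other 30 over the 12 arrays, with group means taken out (filled) and on the levels as they are (open). Filled points run from -0.25 for Figla to 0.98 for Nlrp14.

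Outside the set, the named genes most like its mean with the group means taken out were found over all genes. The first 10 were Oosp3 (r = 0.99), Pramel29 (0.97), Fbxw16 (0.97), Nlrp4b (0.97), Mbl2 (0.95), Wfdc2 (0.94), Ifna1 (0.93), Fbxw19 (0.93), Fbxw21 (0.93) and Fbxw24 (0.92). Of these 10, 5 were on the list of further oocyte genes, namely Oosp3, Nlrp4b, Fbxw19, Fbxw21 and Fbxw24. Fbxw16 was not listed but lies on chromosome 9 between Fbxw22 and Fbxw19, and Pramel29 lies on chromosome 4 near the listed Oog3. How far the probe sets of the Fbxw genes read each other's transcripts was not tested. Mbl2, a mannose-binding lectin known from liver, measured 9.09, 9.46 and 10.46 in the bERKO PMSG samples, against 5.24, 6.82 and 9.02 in the WT PMSG samples. Ifna1, an interferon, had r = -0.36 on the levels themselves, so it was alike within groups only.

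A list of further oocyte genes, of which 42 of 51 names were measured, was likewise highest in the bERKO PMSG samples. Its mean level was 5.80, 5.67 and 6.57 in the bERKO hCG samples, 5.66, 5.90 and 5.43 in the WT hCG samples, 7.12, 7.23 and 7.91 in the bERKO PMSG samples and 5.30, 5.59 and 7.09 in the WT PMSG samples. For hCG within bERKO, 11 of the 42 fell and 0 rose in limma, where 11.9% of all genes were called lower and 7.05% higher, with a median change of -1.31. The 8 with the lowest adjusted p were the egg protease Astl, Tcl1b1, Fbxw24, Oog3, Omt2a, Nlrp4b, Fbxw13 and the oocyte linker histone H1f8. Their changes were -2.95, -1.95, -2.97, -2.98, -3.08, -2.95, -2.80 and -3.52 in that order, and their adjusted p values ran from 0.00523 for Astl to 0.0348 for H1f8. In the other comparisons none of the 42 passed, with median changes of 1.61 for bERKO over WT after PMSG, 0.26 after hCG and -0.42 for hCG within WT.

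Markers of other cells did not share the order of the oocyte genes in full. Of the cumulus-enriched genes, Slc38a3 and Amh were measured, with a mean of 6.14, 4.95 and 5.37 in the bERKO PMSG samples, against 5.003, 6.36 and 5.90 in the WT PMSG samples. That mean overlapped between the groups and was not highest on the arrays with the most oocyte signal, but its genes went opposite ways. For bERKO over WT after PMSG, Slc38a3 had a change of -1.33 and Amh of 0.79, neither passing in limma. Amh, close to the floor on several arrays, measured 6.11, 4.33 and 5.82 in the bERKO PMSG samples, against 4.72, 4.51 and 4.65 in the WT PMSG samples. The mural-enriched genes measured were Cyp11a1, the side-chain cleavage enzyme of steroid synthesis, and Cd34. Their mean was lowest of all arrays on bERKO PMSG replicate 3, where the oocyte mean was highest. Among the WT PMSG arrays, however, the mural mean and the oocyte mean were both highest on replicate 3. By group the mural mean was 11.37, 11.55 and 11.56 in the bERKO hCG samples, 8.90, 10.71 and 10.45 in the WT hCG samples, 8.84, 9.39 and 6.61 in the bERKO PMSG samples and 10.24, 10.03 and 10.75 in the WT PMSG samples. Cyp11a1 measured 8.82, 9.68 and 5.44 in the bERKO PMSG samples, against 11.35, 11.29 and 12.42 in the WT PMSG samples, without overlap but also without a call (change -3.71, adjusted p = 0.297 in limma). After hCG in bERKO, Cyp11a1 rose by 5.76 (SE 1.03, adjusted p = 0.00307 in limma), while Cd34 did not pass. The endothelial markers had a mean of 7.45, 8.01 and 7.16 in the bERKO hCG samples, 5.60, 5.72 and 5.52 in the WT hCG samples, 5.62, 5.42 and 4.67 in the bERKO PMSG samples and 5.53, 5.73 and 6.16 in the WT PMSG samples. In the comparison where the oocyte genes fell, hCG within bERKO, 5 of the 6 endothelial markers were called higher (median change 2.13). After hCG, 4 of the 6 were called higher in bERKO than in WT (median change 2.11), where 1.55% of all genes were. For hCG within bERKO, 2 of 6 leukocyte and 1 of 7 stromal markers were called higher, where 7.05% of all genes were. Their changes were positive for 6 of 6 and 6 of 7 (median changes 0.94 and 1.79). There 5 of 8 granulosa markers were called lower (median change -1.40), where 11.9% of all genes were. The 7 stromal and smooth muscle markers had a mean of 9.41, 9.41 and 7.88 in the bERKO hCG samples, 6.10, 7.37 and 6.83 in the WT hCG samples, 6.84, 6.36 and 8.05 in the bERKO PMSG samples and 6.03, 6.09 and 8.47 in the WT PMSG samples. They were highest within each PMSG group on replicate 3, as the oocyte genes were, but lowest there among the bERKO hCG arrays. With group means taken out, their median r with the 31-gene mean was 0.585, and it was 0.615 for the further oocyte genes, -0.368 for the granulosa markers, -0.039 for endothelium and 0.159 for leukocytes. The part that these other cells, a mural or cumulus origin and RNA quality had in the oocyte signal was not tested.

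**Figure D4:**
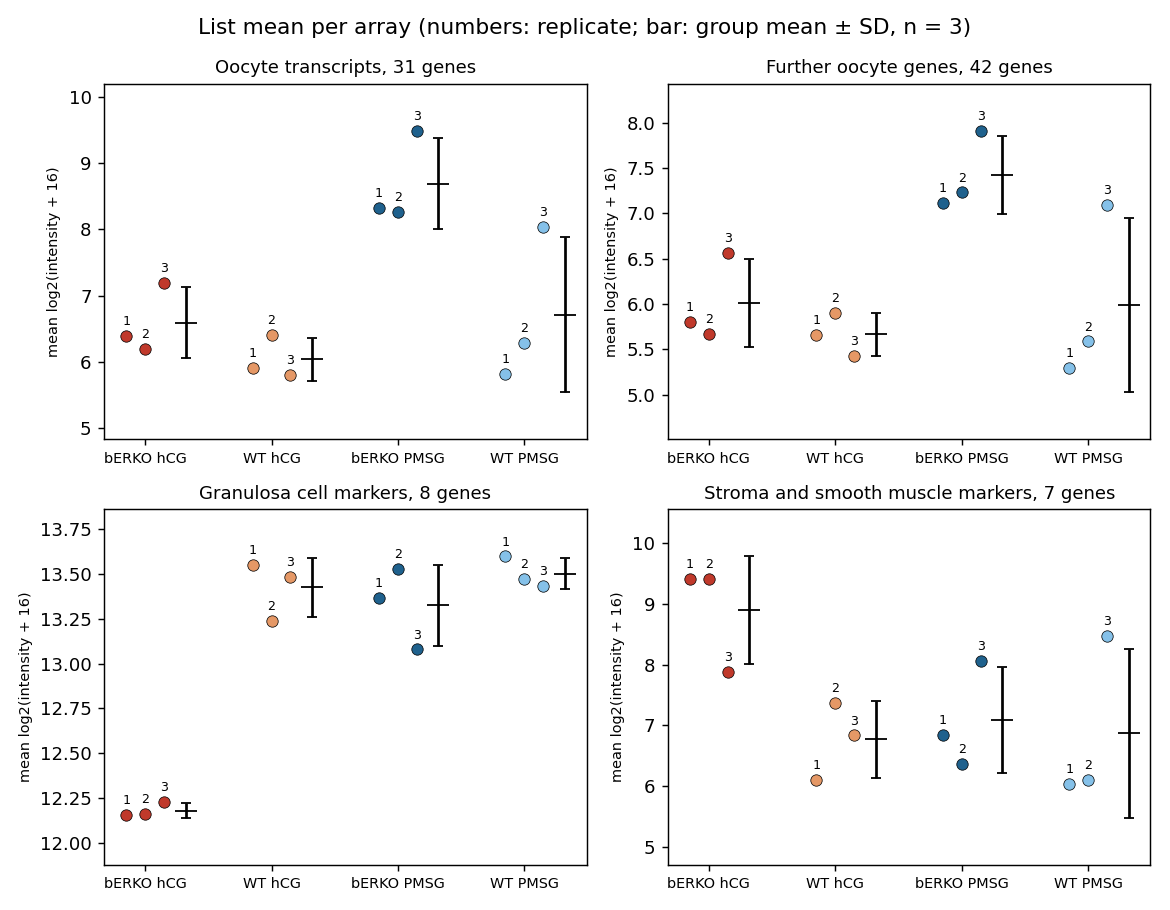
Mean log2(intensity + 16) of 4 gene lists on each array (points, numbered by replicate), with the group mean ± SD (n = 3) beside them; the vertical scales differ between panels. Both oocyte lists are highest in the bERKO PMSG samples and WT PMSG replicate 3, granulosa markers are lowest in the bERKO hCG samples, and stromal markers are high in the bERKO hCG samples.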

How the data were processed

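The 12 arrays were analysed from the deposited values. Per the labels, RNA was amplified with a NuGEN kit and hybridised to one-colour Affymetrix arrays. The labels do not name the software behind the signals. The authors deposited linear intensities per probe set, whose 2% trimmed mean was near 500 on every array. They were quantile normalized, because array medians spread by 0.981 on the log2 scale, and taken as log2(intensity + 16) from the deposited values. Control probe sets were left out, and each of 18193 genes was read through its brightest one-gene probe set, of 34945. All 4 groups were fitted together in limma 3.58.1 (R 4.3.3), with Benjamini-Hochberg adjustment over all genes and a threshold of 0.05. The fit was tested on simulated data. The number of arrays limits the precision, and p-values measure the spread between arrays, which may be partly technical. Given sample by sample were the gene with the highest mean level of each role group and the 12 called genes with the smallest p, and some further members were shown after their values were seen. The members and lists were chosen with earlier results of these data known. Tried alternatives were other scaling, offsets of 1 and 64, a filter on dim genes, a mean over probe sets, a replicate block and left-out arrays.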

Additional observations from a re-analysis of the deposited data

How the results depend on the processing

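No called gene and no median change turned its direction under any alternative, while uncalled values of single genes changed sign 133 times among 3970 refits. For bERKO over WT after PMSG, the count of called oocyte genes was 0, and it was 2 with an offset of 64, 2 with both PMSG arrays numbered 3 left out (chosen after seeing the data) and 0 to 6 with 1 array left out, where the median change was 1.69 to 2.99. For bERKO over WT after hCG, the count of 1 was 0 with values as deposited, median centring, offsets of 1 or 64, the replicate block, both arrays with a high Gapdh ratio left out, or only the arrays compared. It was 2 without both PMSG arrays numbered 3, and 0 to 1 with 1 array left out (median 0.12 to 0.71). Averaged over treatments, the count of 1 was 0 with values as deposited, an offset of 1, the mean over probe sets, the replicate block or both high-Gapdh arrays left out. It was 2 without both PMSG arrays numbered 3, and 0 to 6 with 1 array left out (median 1.14 to 1.67). For hCG in WT, the count of 1 was 0 with only the arrays compared or without both PMSG arrays numbered 3, and 0 to 1 with 1 array left out (median -0.92 to -0.07). For hCG in bERKO, the count of 18 was 6 with an offset of 1, 3 without both high-Gapdh arrays, 14 without both PMSG arrays numbered 3, 18 with the replicate block, and 2 to 23 with 1 array left out (median -2.70 to -1.86). For the difference of responses, the count of 0 was 1 with an offset of 64 and 1 without both PMSG arrays numbered 3, and it was 0 whichever 1 array was left out, where the median change was -2.39 (without WT PMSG replicate 3) to -0.97. Why these counts moved was not tested.

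Over all 18193 genes the counts of calls were 2 after PMSG (0 to 26 under the alternatives), 562 after hCG (141 to 882), 26 for the average (0 to 74), 378 for hCG in WT (31 to 870), 3447 for hCG in bERKO (2302 to 3969) and 239 for the difference of responses (54 to 454). Over all genes, same-numbered arrays of different groups were hardly more alike than others. The correlation of deviations was -0.08 to 0.12 over the 18 same-numbered pairs, with 1 pair above 0.1. Over the other 36 pairs it was -0.115 to 0.073, with 0 above 0.1. These values cover all genes and cannot show whether the arrays numbered 3 share something that acts on the oocyte genes alone. Replicate 3 led for most oocyte genes in the WT PMSG, bERKO PMSG and bERKO hCG groups. With 3 arrays a group, 20 of the 31 genes within 1 unit of the floor on some array and RNA quality unequal between arrays, changes of dim genes are the least certain.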
